A study of Mus musculus with 10 samples.

Results

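A set of 10 genes of fatty acid uptake, activation and droplet storage was compared between 2 hindlimb muscles of the mouse, the slow-twitch soleus and the fast-twitch tibialis anterior (TA). They are Lpl, Cd36, Fabp3, Acsl1, Dgat1, Dgat2, Plin2, Plin4, Plin5 and Pnpla2, and they are 10 of 20009 genes with a count in any library. They were chosen by their known roles in the pathway, with earlier results of these data known. RNA was sequenced from soleus and TA of wild-type mice, with 3 male and 2 female mice for each muscle. That gave 5 soleus and 5 TA libraries, with no treatment. The sources used here give neither strain nor age. The file names carry 1 animal code for the soleus and TA libraries of the same sex and replicate number, so these are read below as 1 mouse.

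A muscle fiber takes most of its fatty acids from lipoproteins in the blood and from albumin. Lipoprotein lipase frees fatty acids from triglyceride at the capillary wall, CD36 helps them across the membrane, FABP3 carries them in the cytosol, and ACSL1 couples them to coenzyme A. The activated fatty acid is either burned in mitochondria or joined to diacylglycerol by DGAT1 or DGAT2 and kept in a droplet. Perilipins coat the droplet, and PNPLA2, also called ATGL, opens its store by removing the first fatty acid. Slow oxidative muscle is known for a high capacity to oxidize fatty acids.

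The libraries held 726414 to 961844 counts each. Soleus female 2 listed 22862 transcripts, and the other 9 libraries listed 14993 to 16575, so results are also given without it where it matters. The muscle labels fit the fiber genes. The summed level of 6 slow-fiber markers was 5116 to 6965 CPM (counts scaled to a common library size, after TMM scaling) in soleus, against 0 to 12.7 CPM in TA. The summed level of 5 fast-fiber markers was 443 to 791 CPM in soleus, against 9433 to 16670 CPM in TA. Of 5115 genes that passed the filter on low counts, 1126 differed between the muscles (22.0%). These were 561 higher in soleus (11.0%) and 565 lower in soleus (11.0%), at an adjusted p under 0.05. In bulk tissue, fewer cells of a type and less RNA per cell cannot be told apart.

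Of the 10 genes, 7 passed the filter, and 3 of these 7 were higher in soleus: Lpl, Fabp3 and Dgat2. None of the 7 was lower. The median log2 fold change of soleus over TA was 0.94 over the 7 tested genes, against 0.01 over all genes tested. That median is the value of Cd36, which passed the filter with 3 soleus libraries and 1 TA library above the cutoff of 11.2 CPM, so it only describes the genes that passed. Cd36, Acsl1, Plin2 and Plin4 were tested and did not pass. Dgat1, Plin5 and Pnpla2 had too few counts to be tested in this fit. The libraries of the muscles did not overlap for the same 3 genes, and 373 of all genes tested were higher in soleus with no overlap (7.29%) and 397 lower in soleus with no overlap (7.76%).

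**Figure D1:**
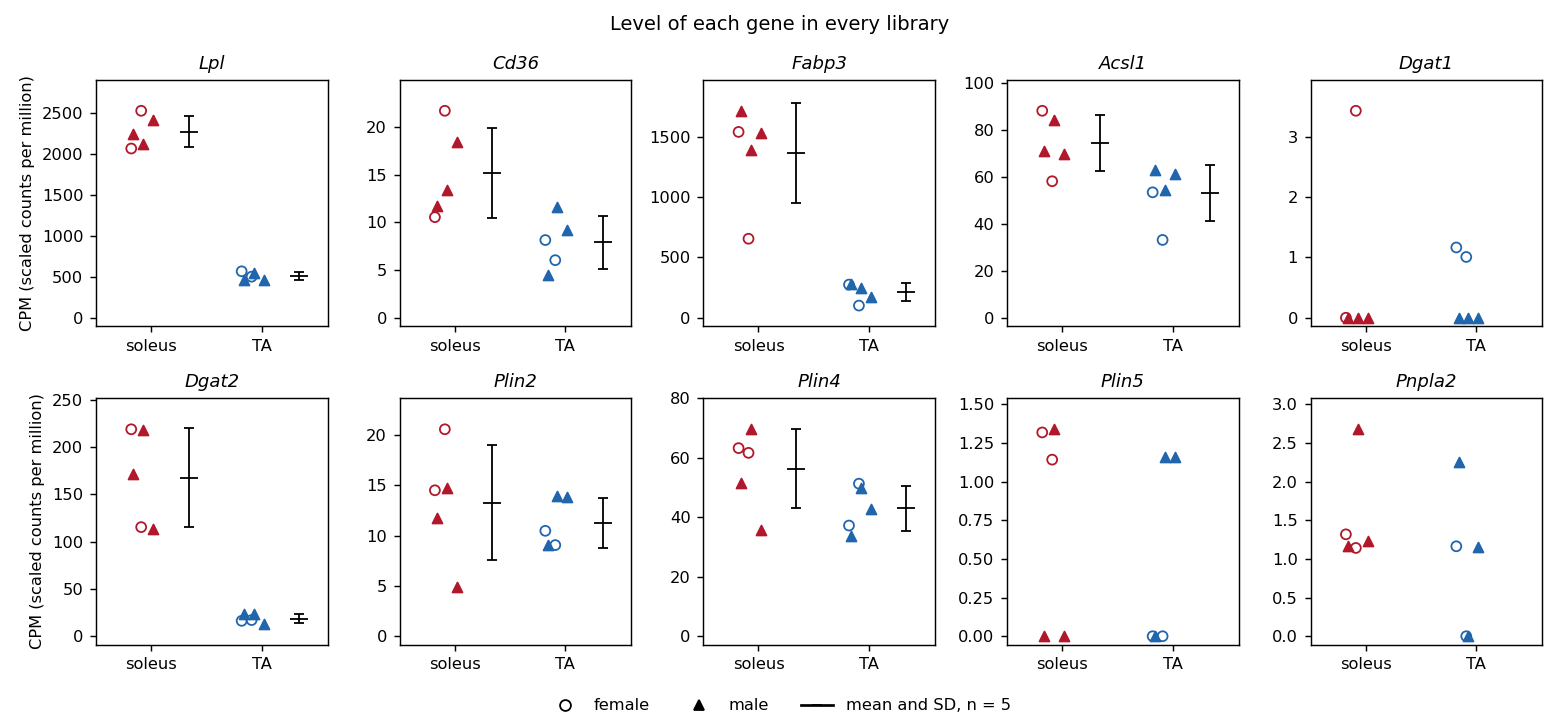
Level of the 10 genes in every library, in CPM, for soleus on the left and TA on the right of each panel. Open circles are female and filled triangles male mice, and bars show the mean and SD (n = 5) for the 7 tested genes. Lpl, Fabp3 and Dgat2 stand apart between the muscles. Dgat1, Plin5 and Pnpla2 stay at 3 counts or fewer in each library.

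Sequences are shown for the promoters of Fabp3 and Acsl1. Fabp3 is 1 of the 3 genes that were higher in soleus. Acsl1 has 2 windows, with very different counts on the transcripts that start in each. Promoter windows from RefSeq (build GRCm38.p6, letters 5′ to 3′ on the gene's strand) were given for 7 of the 10 genes, and Acsl1 and Plin5 have 2 windows each. Capitals mark an E-box (CANNTG) or a GC box (GGGCGG), searched on both strands. GC boxes can overlap.
Fabp3, chr4:130308488-130308787, plus strand: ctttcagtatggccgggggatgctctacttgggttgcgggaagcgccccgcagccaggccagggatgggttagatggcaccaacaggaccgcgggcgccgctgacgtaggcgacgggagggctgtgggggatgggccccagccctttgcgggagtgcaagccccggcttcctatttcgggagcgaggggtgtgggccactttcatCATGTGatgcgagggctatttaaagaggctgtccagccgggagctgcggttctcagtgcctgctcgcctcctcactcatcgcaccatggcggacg
Acsl1 window 1, chr8:46470787-46471086, plus strand: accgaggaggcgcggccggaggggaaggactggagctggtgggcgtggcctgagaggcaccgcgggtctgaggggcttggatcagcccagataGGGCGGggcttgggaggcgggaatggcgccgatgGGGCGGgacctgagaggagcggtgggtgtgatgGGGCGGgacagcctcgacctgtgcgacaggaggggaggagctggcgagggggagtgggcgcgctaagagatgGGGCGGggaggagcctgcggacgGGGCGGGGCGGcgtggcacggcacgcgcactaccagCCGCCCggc
Acsl1 window 2, chr8:46490716-46491015, plus strand: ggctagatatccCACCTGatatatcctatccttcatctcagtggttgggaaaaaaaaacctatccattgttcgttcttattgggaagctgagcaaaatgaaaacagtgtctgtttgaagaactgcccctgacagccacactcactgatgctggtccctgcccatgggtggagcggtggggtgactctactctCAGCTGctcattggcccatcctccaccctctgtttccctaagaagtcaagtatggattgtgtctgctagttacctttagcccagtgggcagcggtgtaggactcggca
The Fabp3 window held 1 E-box and no GC box. Acsl1 window 1 held 7 GC boxes and no E-box, and window 2 held 2 E-boxes and no GC box. Of 32851 windows in the table, 72.3% held an E-box and 35.7% a GC box. The nuclear receptor element AGGTCA was in 16.3% of the windows, in none of these 3, and in 4 of the 9 windows of the 10 genes, those of Cd36 and Plin2 and both of Plin5. A direct repeat of it spaced by 1 base was in 0.0396% of all windows and in none of the 9 windows of the 10 genes. The Plin4 window held 1 E-box, and the windows of Cd36, Plin2, Plin5 and Pnpla2 held 2 to 4 E-boxes and 1 to 2 GC boxes each. These are matches of letters only.

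Lpl (ENSMUSG00000015568.16, chr8:68880491-68907448, plus strand) encodes lipoprotein lipase. Its counts summed to 9257 in soleus, against 2278 in TA. In soleus its level was 2069 and 2531 CPM in females 1 and 2, and 2249, 2121 and 2413 CPM in males 1 to 3. In TA it was 568 and 502 CPM in females 1 and 2, and 462, 553 and 467 CPM in males 1 to 3. The lowest soleus library was far above the highest TA library. Lpl averaged 2277 ± 194 CPM in soleus, against 510.3 ± 48.3 CPM in TA (SD, n = 5 per muscle), a log2 fold change of 2.16 (SE 0.13, 95% interval 1.87 to 2.44) and an edgeR adjusted p of 2.70e-07. That is 4.46-fold, and within mice the soleus over TA ratio was 3.64 to 5.17. The spread between libraries was small, at 8.53% of the mean in soleus and 9.46% in TA. Without soleus female 2 the log2 fold change was 2.12.

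Of the Lpl counts, 98.8% ± 1.34 in soleus and 98.5% ± 0.186 in TA (SD, n = 5 per muscle) fell on Lpl-201, the main protein-coding transcript. The difference was 0.31 percentage points (exact 2-sided permutation test, p = 0.786). Lpl-202, a retained-intron transcript, had 74 counts in soleus female 2 and 8 to 12 in the other soleus libraries, against 5 to 7 in TA. Without soleus female 2 the difference in the Lpl-201 share was 0.908 points, at an exact permutation p of 0.00794, so this comparison rests on that library.

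Cd36 (chr5:17781690-17888801, minus strand) encodes the fatty acid translocase of the plasma membrane. Its counts summed to 62 in soleus, against 35 in TA. Its level was 10.5 and 21.7 CPM in soleus of females 1 and 2 and 11.7, 13.4 and 18.4 CPM in soleus of males 1 to 3. In TA it was 8.14 and 6.04 CPM in females 1 and 2 and 4.51, 11.6 and 9.25 CPM in males 1 to 3. TA male 2 lay above soleus female 1, so the muscles overlapped. Cd36 averaged 15.2 ± 4.74 CPM in soleus, against 7.90 ± 2.76 CPM in TA (SD, n = 5 per muscle), a log2 fold change of 0.94 (SE 0.34, 95% interval 0.20 to 1.68) with an edgeR adjusted p of 0.0692. Soleus was the higher muscle in 5 of 5 mice. Without soleus female 1 the edgeR adjusted p was 0.0465, and without soleus female 2 the log2 fold change was 0.72. Of the Cd36 counts, 67 were on Cd36-204 and 21 on Cd36-205. Every stretch of 31 bases in Cd36-201 is shared with another annotated transcript. Cd36-202, Cd36-203 and Cd36-206 have 30, 29 and 21 stretches of their own. The part of shared sequence in the low Cd36 counts was not tested.

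Fabp3 (chr4:130308595-130315463, plus strand) encodes the heart-type fatty acid binding protein of the cytosol. It had 5488 counts in soleus and 937 in TA, all on its 1 transcript. In soleus its level was 1539 and 654 CPM in females 1 and 2 and 1714, 1388 and 1529 CPM in males 1 to 3. In TA it was 275 and 101 CPM in females 1 and 2 and 276, 243 and 169 CPM in males 1 to 3. Female 2 was the lowest of its group in both muscles, and still the muscles did not overlap. Fabp3 averaged 1365 ± 414 CPM in soleus, against 213 ± 76.3 CPM in TA (SD, n = 5 per muscle), a log2 fold change of 2.67 (SE 0.30, 95% interval 2.03 to 3.31) and an edgeR adjusted p of 3.48e-05. The fold was 6.36, and it was 5.61 to 9.06 within mice. Without soleus female 2 the log2 fold change was 2.84. The spread was 30.3% of the mean in soleus and 35.9% in TA, wider than for Lpl. Fabp3-ps1, a processed pseudogene with shared sequence, had 50 counts in all.

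Acsl1 (chr8:46471037-46536051, plus strand) encodes the long-chain acyl-CoA synthetase of muscle and fat. Its level was 88.3 and 58.2 CPM in soleus of females 1 and 2 and 71.3, 84.3 and 70.1 CPM in soleus of males 1 to 3. In TA it was 53.5 and 33.2 CPM in females 1 and 2 and 63.1, 54.4 and 61.3 CPM in males 1 to 3. Only soleus female 2 lay within the TA range. Acsl1 averaged 74.5 ± 12.1 CPM in soleus, against 53.1 ± 11.9 CPM in TA (SD, n = 5 per muscle), a log2 fold change of 0.50 (SE 0.18, 95% interval 0.10 to 0.90) with an edgeR adjusted p of 0.0725. With the mouse as a block the log2 fold change was again 0.50 and the edgeR adjusted p 0.0492, in a fit that called 1207 genes (23.6%), so the call depends on the pairing. Soleus was higher in 5 of 5 mice, by 1.13-fold to 1.75-fold, and without soleus female 2 the edgeR adjusted p was 0.0511. Acsl1-201, which starts in window 1 shown above, had 466 of the counts. Acsl1-203 and Acsl1-205, which start in window 2, had 2 counts together. Of the stretches of 31 bases in Acsl1-201, 12.6% are found in no other annotated transcript. For Acsl1-203 and Acsl1-205 this was 4.33% and 8.28%. These are counts per transcript, and the use of each start site was not tested.

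Dgat2 (chr7:99153658-99182719, minus strand) encodes 1 of the acyltransferases that complete triglyceride. Its counts, all on Dgat2-201, summed to 669 in soleus, against 83 in TA. Its level was 219 and 115 CPM in soleus of females 1 and 2 and 172, 218 and 113 CPM in soleus of males 1 to 3. In TA it was 16.3 and 17.1 CPM in females 1 and 2 and 23.7, 23.2 and 12.7 CPM in males 1 to 3. Every soleus library was above every TA library by a wide margin. Dgat2 averaged 167 ± 52.2 CPM in soleus, against 18.6 ± 4.71 CPM in TA (SD, n = 5 per muscle), a log2 fold change of 3.16 (SE 0.26, 95% interval 2.59 to 3.73) and an edgeR adjusted p of 4.23e-06. At 8.94-fold, this was the largest fold change among the 7 tested genes. Within mice it was 6.74-fold to 13.4-fold. Without soleus female 2 the log2 fold change was 3.28.

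Adipocytes also express Dgat2 and Lpl. Of 7 adipocyte markers 2 were tested, and 1 of these, Adipoq, was higher in soleus. The 7 summed to 148 to 236 CPM in soleus and 92.5 to 218 CPM in TA, and 91.3% of their counts were on Fabp4, which capillary cells also express. Without Fabp4 the other 6 summed to 21.1 to 32.1 CPM in soleus and 2.26 to 6.98 CPM in TA, and the muscles did not overlap. Adipoq had 33 counts in soleus and 8 in TA, a log2 fold change of 2.09 (SE 0.62) at an edgeR adjusted p of 0.0301, and it passed the filter on 2 soleus libraries with no TA library above the cutoff. Lep and Cidec were at 0 in every TA library, with 7 and 3 counts in soleus. The part of fat cells in the Lpl and Dgat2 differences was not tested. Endothelial cells also carry Cd36. Their 7 markers summed to 179 to 261 CPM in soleus and 240.4 to 802 CPM in TA, and the 2 that were tested, Cdh5 and Kdr, were lower in soleus. Of these counts 74.3% were on Cdh5, and the other 6 markers summed to 46.8 to 71.3 CPM in soleus and 57.3 to 171 CPM in TA, which overlap. Pecam1 had 20 counts in soleus and 19 in TA. Their part in the Cd36 values was not tested.

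**Figure D2:**
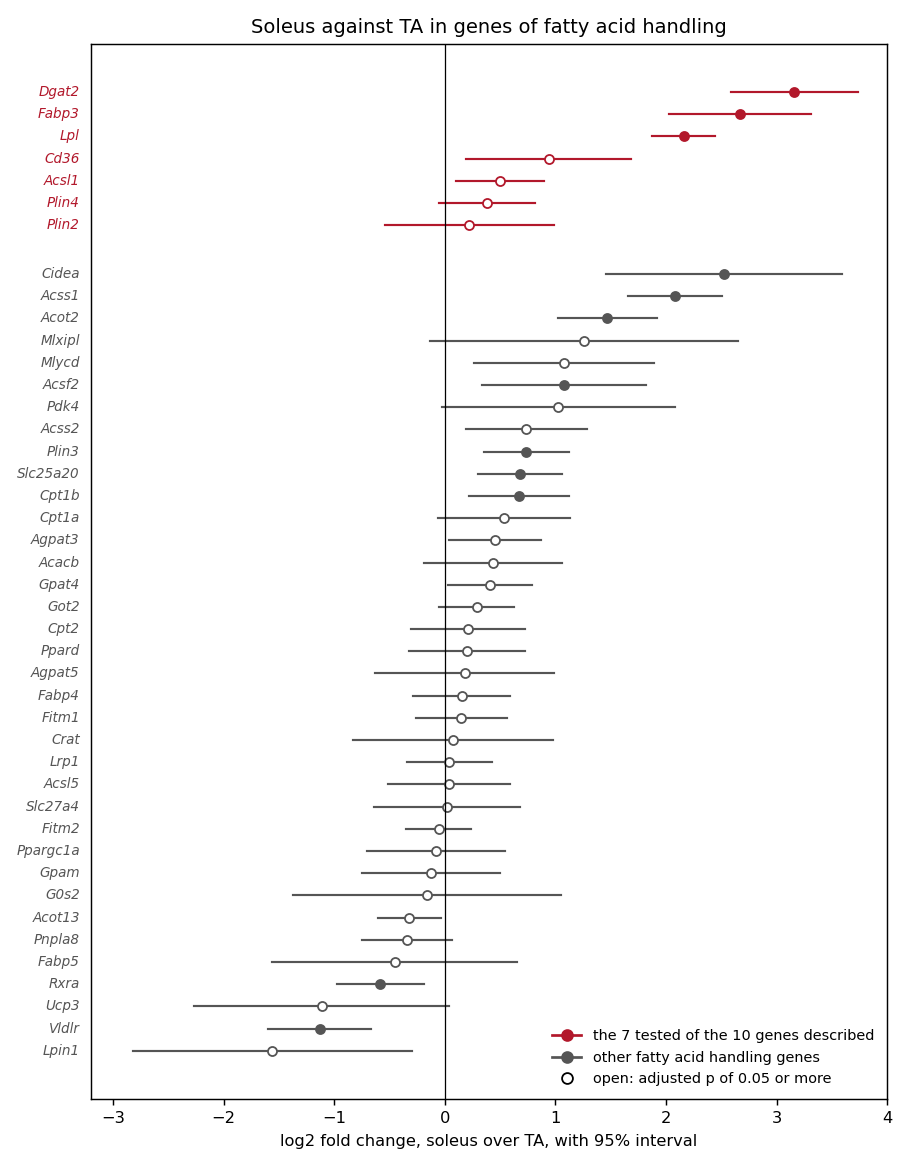
Log2 fold change of soleus over TA with its 95% interval, for the 7 tested genes of the 10 (red) and 36 other tested genes of fatty acid handling (grey). Filled points had an edgeR adjusted p under 0.05 and open points did not. Dgat2, Fabp3 and Lpl lie at 3.16, 2.67 and 2.16, and Vldlr at -1.13 is among the lowest.

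Dgat1, which encodes the other acyltransferase (chr15:76502015-76511953), had 3 counts in soleus, all in female 2, and 2 counts in TA, 1 in each female. All 5 lay on retained-intron transcripts. The leading protein-coding transcript, Dgat1-201, had no counts, and only 2 of its stretches of 31 bases (31-mers) are found in no other annotated transcript. Across the 10 genes, 5 transcripts had no 31-mer of their own and none of them had a count. No fold is given, since both muscles are at or under the floor of 3 counts. Dgat2 made up 99.4% ± 1.29 of the counts on Dgat1 and Dgat2 in soleus and 97.6% ± 3.37 in TA (SD, n = 5 per muscle). The shares differed by 1.87 points (exact permutation test, adjusted p = 0.556 over 5 shares). The difference was 0.812 points without TA female 1, 1.09 points without TA female 2 and at most 2.48 points with any 1 library left out. With 5 counts of Dgat1 in all, most libraries lay at the ceiling of 100%, so this test could hardly show a shift.

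Plin2 (chr4:86648386-86670060, minus strand) encodes a broadly expressed droplet coat protein. It had 54 counts in soleus and 50 in TA. Its level was 4.92 to 20.6 CPM in soleus and 9.02 to 13.9 CPM in TA, and soleus held both the lowest library, male 3, and the highest, female 2. Plin2 averaged 13.3 ± 5.68 CPM in soleus, against 11.3 ± 2.46 CPM in TA (SD, n = 5 per muscle), a log2 fold change of 0.22 (95% interval -0.54 to 0.98, edgeR adjusted p 0.717). In males only the log2 fold change was -0.23, and without soleus female 2 it was 0.02. Of its counts, 45 in soleus and 37 in TA were on Plin2-201, the main protein-coding transcript.

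Plin4 (chr17:56100591-56109803, minus strand) encodes a large coat protein of muscle and fat. It had 227 counts in soleus and 193 in TA. The soleus levels were 63.3 and 61.7 CPM in females 1 and 2 and 51.5, 69.6 and 35.6 CPM in males 1 to 3, against 37.2 and 51.3 CPM in females 1 and 2 and 33.8, 49.8 and 42.8 CPM in males 1 to 3 in TA. The muscles overlapped, and soleus was higher in 4 of 5 mice. Plin4 averaged 56.3 ± 13.3 CPM in soleus, against 43.0 ± 7.63 CPM in TA (SD, n = 5 per muscle), a log2 fold change of 0.38 (SE 0.20, 95% interval -0.06 to 0.82, edgeR adjusted p 0.210). All counts were on Plin4-202, although only 1 of its 31-mers is its own, and Plin4-201 had none.

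Plin5, the neighbour of Plin4 on the same strand with 1797 bases between them (chr17:56111601-56117596), encodes the coat protein of oxidative tissue that links droplets to mitochondria. It had 3 counts in soleus, 1 each in females 1 and 2 and in male 2, and 2 counts in TA, 1 each in males 2 and 3. Its 2 transcripts each have 99 31-mers of their own, 5.06% of the transcript. Pnpla2 (chr7:141455198-141460743) encodes the first lipase of the droplet and had 6 counts in soleus and 4 in TA, a ratio of 1.66 (95% exact counting interval 0.393 to 7.97). No difference in Pnpla2 was detectable at this depth within the folds that this interval spans, and for Plin5 both muscles are at or under the floor of 3 counts.

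**Figure D3:**
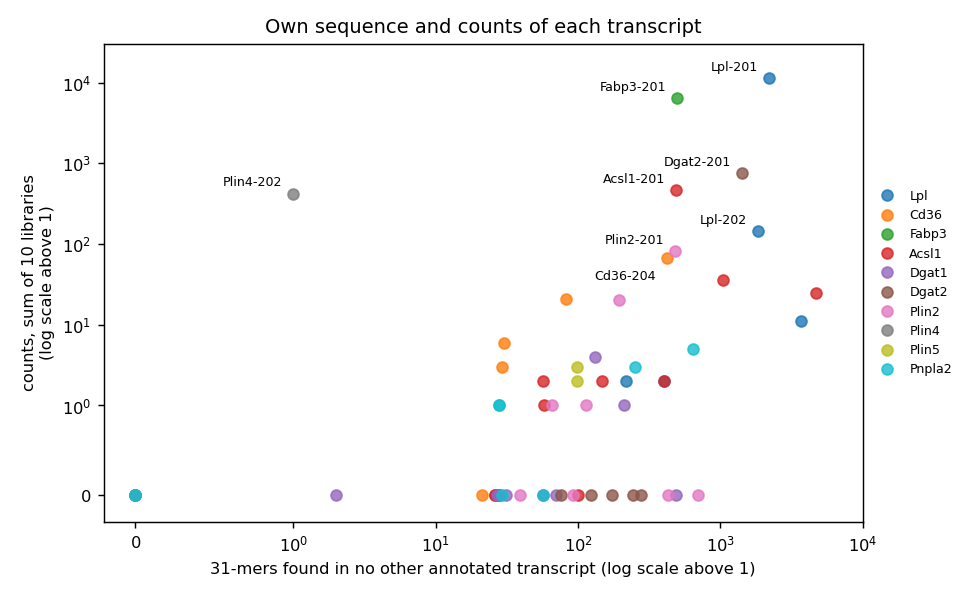
Each point is an annotated transcript of the 10 genes, with the number of 31-mers found in no other annotated transcript on the x axis and its counts summed over the 10 libraries on the y axis, both on a log scale above 1. All 5 transcripts with no 31-mer of their own have 0 counts, while 31 of the other 55 have counts. Plin4-202, with 1 such 31-mer, stands apart.

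Within the perilipin family, Plin4 took a smaller share of the counts in soleus with all 10 libraries, a call that most fits with 1 library left out did not keep. A share also depends on the other genes in the sum. The Plin4 level itself was not lower in soleus (log2 fold change 0.38). Plin3, which is no member of the 10, is the ubiquitous coat protein and was higher in soleus, with 629 counts there and 422 in TA. Its log2 fold change was 0.74 (SE 0.18, edgeR adjusted p 0.00999), and soleus was higher in 5 of 5 mice. Plin4 took 23.3% to 26.3% of the counts on Plin2 to Plin5 in soleus and 26.7% to 34.6% in TA, and the muscles did not overlap. The means were 24.9% ± 1.37 in soleus and 29.1% ± 3.37 in TA (SD, n = 5 per muscle), a difference of -4.30 points with an exact 2-sided permutation p of 0.00794, the smallest that 5 against 5 libraries can give, and 0.0397 adjusted over 5 shares. Leaving out 1 library gave differences of -4.92 to -2.94 points with adjusted exact p of 0.0198 to 0.198, and the call held in 4 of these 10. Paired within mice the adjusted exact p was 0.156. These are shares of counts, not of molecules, since the genes differ in the sequence that is counted. Plin3 took 69.2% ± 2.29 in soleus and 62.7% ± 5.92 in TA, a difference of 6.51 points (exact permutation test, adjusted p = 0.0595). Without TA female 2 the difference was 7.77 points at an adjusted exact p of 0.0198, and without TA male 3 it was 4.16 points. Plin2 differed by -2.19 points (adjusted exact p = 0.212; -1.34 without TA male 3) and Plin5 by -0.03 points (adjusted exact p = 1).

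**Figure D4:**
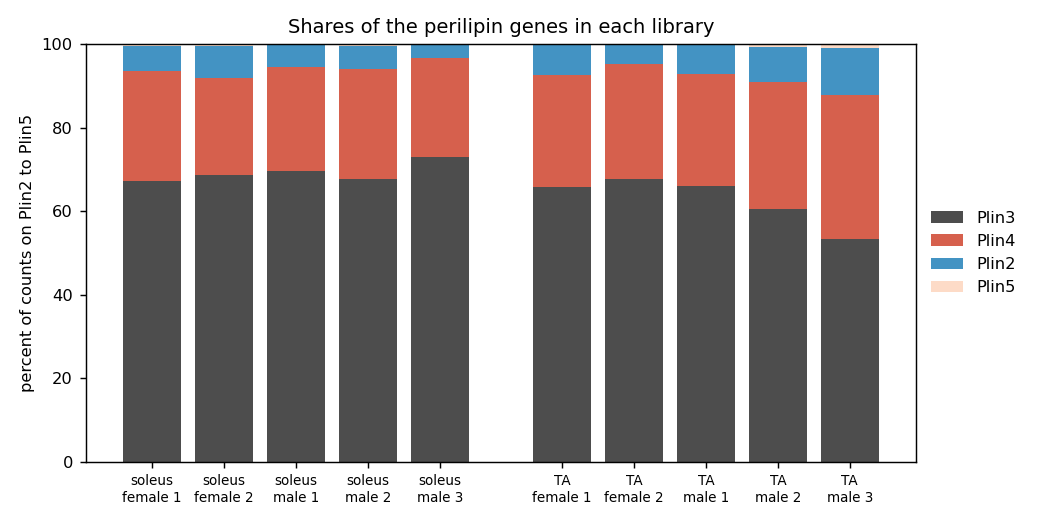
Percent of the counts on Plin2 to Plin5 taken by each gene, 1 bar per library, with the 5 soleus libraries on the left and the 5 TA libraries on the right. The Plin4 part is 23.3% to 26.3% in soleus and 26.7% to 34.6% in TA, and TA male 3 has the smallest Plin3 part.

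The mouse with the largest ratio was not the same for all 7 tested genes, and some ratios rest on few counts. Soleus was the higher muscle in 5 of 5 mice for Lpl, Fabp3, Dgat2, Cd36 and Acsl1, and for Plin2 and Plin4 in 4 of 5, with male 3 the exception for both. In that mouse the soleus over TA ratio was 0.354 for Plin2 and 0.833 for Plin4, while Fabp3 had its largest ratio there, 9.06. For Plin2 this was 4 counts in soleus against 12 in TA. The spread of Plin2 between libraries was within counting error (Pearson chi-square test of counts, p = 0.0877 in soleus and 0.747 in TA). Dgat2 had its largest ratio in female 1, 13.4, with 14 counts in TA. None of the 7 differed between female and male mice in soleus, where 28 of all genes did (0.547%), or in TA, where 33 did (0.645%). These counts over all genes rest on single libraries. With 1 library left out they ran from 1, without soleus male 1, to 654, without soleus female 1, for soleus, and from 1, without TA male 2, to 150, without soleus female 2, for TA. A tissue by sex interaction was called by edgeR for 0 genes (0.0%) in a model of group means that does not use the mouse, with 351 genes at an unadjusted p under 0.05. With the mouse as a block it was again 0 genes (0.0%), with 462 at an unadjusted p under 0.05. It was 102 genes without soleus female 1, 3 without soleus female 2 and 58 with no filter on low counts. None of the 10 genes was among those called for sex or for the interaction in any of these fits. Among the 7 genes, 0 had an unadjusted p under 0.05 in any of the 3 contrasts with all libraries, and the smallest was 0.107, for Acsl1 in TA. With 3 males and 2 females the intervals were wide: for Fabp3 the female over male log2 fold change in soleus was -0.49, with a 95% interval of -1.41 to 0.42.

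**Figure D5:**
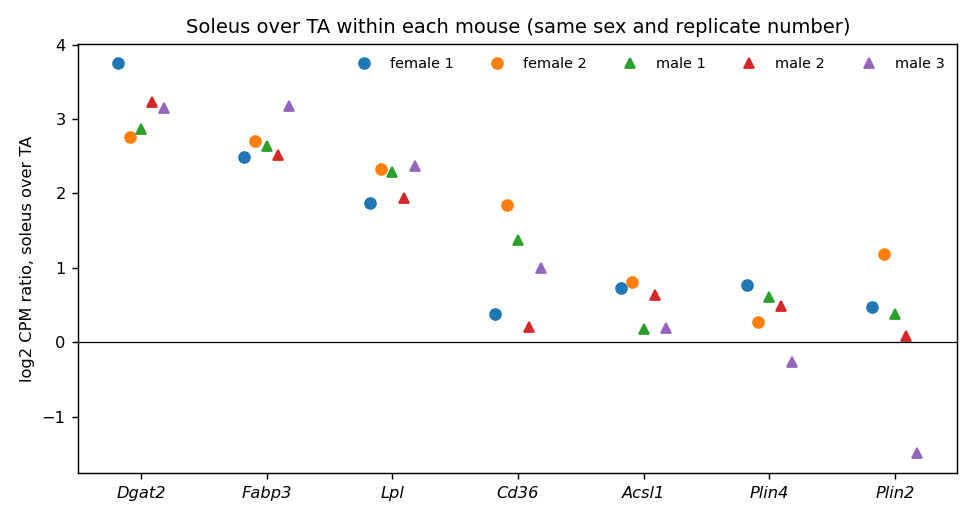
Log2 ratio of soleus over TA within each mouse for the 7 tested genes. Circles are females and triangles are males. Lpl, Fabp3, Dgat2, Cd36 and Acsl1 lie above 0 in 5 of 5 mice, while male 3 lies below 0 for Plin4 and Plin2.

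Other genes of fatty acid handling were taken from a list of 74, of which 73 matched the annotation and 36 were tested. Of these, 7 were higher and 2 lower in soleus, where 11.0% of all genes tested were higher and 11.0% lower, and the median log2 fold change was 0.19. Some of the 36 passed the filter on libraries of 1 muscle alone, more often soleus than TA. The counts and the median therefore only describe the genes that passed. The role listed as activation holds acyl-CoA thioesterases and acetyl-CoA synthetases beside long-chain synthetases, and 3 of its 6 tested genes were higher. Acss1, a mitochondrial acetyl-CoA synthetase, was higher by 2.08 on the log2 scale (SE 0.19, edgeR adjusted p 8.96e-06). Acot2, a mitochondrial acyl-CoA thioesterase, was higher by 1.47, and Acsf2, an acyl-CoA synthetase, by 1.08. Of 4 tested genes of droplet coat and formation 2 were higher, Plin3 and Cidea, which encodes a droplet fusion protein. Cidea had 55 counts in soleus and 10 in TA (log2 fold change 2.52, edgeR adjusted p 0.00290), and fat cells express it too. It passed the filter on 3 soleus libraries, with no TA library above the cutoff, and Acsf2 passed with 3 soleus libraries and 1 TA library. Of 7 genes of mitochondrial entry 2 were higher, the carnitine carrier Slc25a20 by 0.68 and the muscle carnitine palmitoyltransferase Cpt1b by 0.67.

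The lower genes were Vldlr, a receptor that binds triglyceride-rich lipoproteins beside lipoprotein lipase, and Rxra, the partner of the PPAR receptors. Vldlr averaged 152 ± 18.7 CPM in soleus, against 351 ± 137 CPM in TA (SD, n = 5 per muscle), a log2 fold change of -1.13 (edgeR adjusted p 0.00251), with TA female 1 inside the soleus range. Rxra had a log2 fold change of -0.58 (edgeR adjusted p 0.0362). None of the 5 tested genes of glycerolipid synthesis, the 4 of uptake and binding or the 2 of lipolysis passed. The most counted in each were Gpam, the first acyltransferase of glycerolipid synthesis (-0.12), Got2, which also acts as a fatty acid binding protein (0.29), and Pnpla8, a calcium-independent phospholipase (-0.34). Without soleus female 2 Pnpla8 was lower in soleus, at -0.50 (edgeR adjusted p 0.0446). Calls of Rxra, Cpt1b and Acsf2 were lost in 10, 11 and 11 of 19 other settings.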

How the data were processed

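The deposited files give raw counts per Ensembl transcript, as the authors made them, with transcripts of 0 counts not listed. Per the labels' protocols, total RNA from a fibrous-tissue kit entered a Tag-Seq preparation with a Takara SMART-Seq Stranded protocol. The submitters' processing notes name bcl2fastq, Trimmomatic 0.32, FastQC and GRCm38.p4. Neither the aligner nor the counter is named in the sources used here.

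Transcripts were matched to GENCODE M21 (40359 of 40414, with 2597 counts unmatched) and summed to genes. Counts were filtered with filterByExpr by muscle and sex, scaled by TMM and tested with edgeR 4.0.16 (R 4.3.3, limma 3.58.1), a quasi-likelihood F test of muscle that allowed for sex, with Benjamini-Hochberg adjustment over 5115 genes at 0.05. Sex was tested in a model of 4 group means. Shares were compared over all 252 splits of 5 against 5 libraries. The scripts were tested on simulated data. Tables, sequences and plots were made in Python 3.11.15 (matplotlib 3.10.9, scipy 1.17.1, numpy 2.4.6, pandas 2.3.3). Alternatives included the DESeq2 1.42.0 Wald test, other scalings, no filter, protein-coding transcripts only, each sex alone, the mouse as a block and leaving out each library.

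The file names of same-numbered libraries carry 1 animal code. After tissue and sex means were removed, same-numbered libraries correlated across genes with r of 0.183 to 0.239 in the male pairs and 0.285 in the female pairs, where both pairs share 1 value by construction. By the rule of a correlation over 0.1 in every pair, the numbers pair the samples.

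The 10 genes, the list of other genes and the markers were chosen with earlier results of these data known. All 10 genes are named, with every other listed gene called for muscle, the most counted gene of each role with none called, and Plin3. The Pnpla2 interval and the floors cover counting error only, while intervals of fold changes come from the edgeR fit and include the spread between libraries. The fit of the interaction with the mouse as a block was added after seeing the data. P-values of the main fit, of the sex contrasts and of the 252 splits measure the spread between libraries taken as independent. They do not use the pairing by mouse, which only the block fits and the paired share tests use.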

Additional observations from a re-analysis of the deposited data

Results flagged for a closer look

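Among 26 groups of 5 libraries examined for a library far from the other 4, 2 were found, and chance gives about 1 in 20. Both are soleus female 2, the library with the most listed transcripts. Its Dgat2 share of the counts on Dgat1 and Dgat2 was 97.1%, against 100% in each of the other 4 soleus libraries, and it held all 3 soleus counts of Dgat1. With the other 4 at the ceiling of 100%, 1 count of Dgat1 in a single library is enough to set it apart, so this share says little. Its Lpl-201 share of the Lpl counts was 96.4%, against 99.3% to 99.4% in the other 4, beside its 74 counts on the retained-intron transcript Lpl-202.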

How the results depend on the processing

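Over 19 alternatives, Lpl, Fabp3 and Dgat2 kept their direction, with log2 fold changes of 2.10 to 2.21, 2.48 to 2.95 and 2.98 to 3.33. Each kept its call in 18 and lost it in females only (2 against 2 libraries), with edgeR adjusted p of 0.0600, 0.165 and 0.0537. With females only, 0 of the 10 genes, 22 genes in all, and 0 other fatty acid genes in either direction were called, at 713 genes with an unadjusted p under 0.05. Leaving out 1 library gave 893 to 1209 genes, 3 to 4 of the 10, and 5 to 8 other genes higher and 1 to 3 lower in soleus. The DESeq2 Wald test called 1 other gene lower. Plin2 turned to -0.23 in males only, and Gpam to 0.0103 in females only. Gpam ran from -0.491 to 0.0739 with 1 library left out, where the highest value was without soleus female 2. No filter on low counts moved the median log2 fold change of all genes to 0.25. With the mouse as a replicate block, 1207 genes were called (23.6%), 8 other fatty acid genes were higher and 3 lower in soleus, Acsl1 passed (edgeR adjusted p 0.0492), and the Plin4 share differed by -4.30 points with an adjusted exact p of 0.156, where 5 pairs allow no raw p below 0.0625. No other call among the 10 genes or the shares changed under the block. Leaving out 1 library moved the share differences to between -4.92 and -2.94 points for Plin4, 4.16 and 7.77 for Plin3, -0.113 and 0.120 for Plin5, -2.93 and -1.34 for Plin2, 0.812 and 2.48 for Dgat2, and 0.149 and 0.908 for Lpl-201. The cause of these changes was not tested, beyond the fewer libraries in such fits.

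Dgat1, Plin5 and Pnpla2 had too few counts to be tested in the main fit. With no filter on low counts all 10 genes were tested, and the 3 called higher in soleus were again Lpl, Fabp3 and Dgat2. The part of depth, or of the sequence that a transcript has to itself, in the low counts of Dgat1, Plin5 and Pnpla2 was not tested.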

Other observations

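Of the listed genes of fatty acid handling, 37 matched the annotation and had too few counts to be tested in the main fit. Of these, 19 had more counts in soleus, 15 more in TA, and 3 the same number. The 5 genes below were chosen after their values were seen. Angptl4, which encodes a secreted inhibitor of lipoprotein lipase, had 25 counts in soleus, 10 of them in female 2, and 8 in TA. Slc27a1, a fatty acid transport protein, had 32 in soleus and 10 in TA, with 5 to 8 in each soleus library and 1 to 3 in each TA library. Acbd5, an acyl-CoA binding protein of peroxisomes, had 55 in soleus and 13 in TA, but soleus female 2 held 35 of the 55, and the other 4 soleus libraries had 2 to 7 each, against 1 to 5 in the TA libraries. Gpihbp1, the capillary anchor of lipoprotein lipase, had 4 in soleus and 13 in TA, and Lipe, the hormone-sensitive lipase, had 28 in soleus and 31 in TA. None of these 5 genes passed the filter, so none was tested in the main fit. Their results in the fit with no filter are not given here.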
